A study of Mus musculus with 60 samples.

Results

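All keratin genes were followed here through mouse tissues, tumours and cultured fibroblasts. Members were every gene whose symbol is Krt, a number and at most 1 letter, which gave 54 of the 54838 genes of the tissue table and 51 of the 46517 genes of the fibroblast table. Of these 54 genes, 27 are type I, 25 are type II and 2 belong to neither, and 46 could be placed in 8 classes by where they are known to act, while 8 were left without a class.

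Keratins are the proteins of the intermediate filaments of epithelial cells, and each filament is built from pairs of a type I and a type II keratin. Simple epithelia such as lung and liver use Krt8 and Krt18 with Krt7, Krt19 or Krt20, basal cells of stratified epithelia use Krt5, Krt14 and Krt15, and the layers above them switch to Krt1, Krt2, Krt10 and Krt77 in epidermis or to Krt4, Krt13 and Krt76 in mouth and oesophagus. Hair and nail use a separate set, with which the filaments of the hair shaft are hardened, and the inner root sheath of the follicle uses another. Muscle fibres, neurons, lymphocytes and fibroblasts build their filaments mainly from other proteins, such as desmin and vimentin.

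The transgene of the series, CD74-NRG1, fuses the membrane protein Cd74 with neuregulin 1, a ligand of the receptor Erbb3. In the mouse line studied the fusion lies in the Rosa26 locus behind a stop cassette that the Flp recombinase removes. The tissue libraries, 42 in number, came from 9 mice that all carried the transgene and the Flp deleter allele, the mice that gave normal tissue included. Among tumours, sarcoma was represented by 7 libraries (6 mice), liver tumour by 3 and intestine tumour by 2, both of 1 mouse, and normal tissue gave 6 muscle, 7 lung, 8 liver, 6 spleen, 2 brain and 1 kidney libraries. No ages are stated in these sources. The Flp deleter acts early in the embryo in nearly all tissues, so neither the tumours nor the normal tissues come from animals without the fusion. Fibroblasts were grown from 9 embryos, 3 each labelled homozygous for the transgene, heterozygous (transgene and Flp allele) and negative (Flp allele on both copies), and each was sampled at passages 1 and 3.

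Libraries held reads near the 3′ end of each transcript (QuantSeq), so a level is given as CPM, the gene's counts scaled to a common library total, with no division by length. Total counts were 4837536 to 10089637 in tissue libraries and 3107561 to 5511793 in fibroblast libraries, at which a count of 0 allows up to 0.297 to 0.62 CPM and 0.544 to 0.965 CPM, counting error only. In tissue, 42 of 54 keratins reached 5 CPM in at least 1 library, and the other 12 stayed at or under 4.74 CPM, with 1 of them at 0 throughout. The labels were checked with marker lists: lung epithelial genes averaged 47567 CPM in lung and hepatocyte genes 54971 CPM in liver. Near-identical copies (Krt6a and Krt6b, Krt33a and Krt33b, and Krt81, Krt83, Krt86 and Krt87) can share reads, so their single values are uncertain. In tissue pieces, fewer cells of a type and less RNA per cell cannot be told apart.

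**Figure D1:**
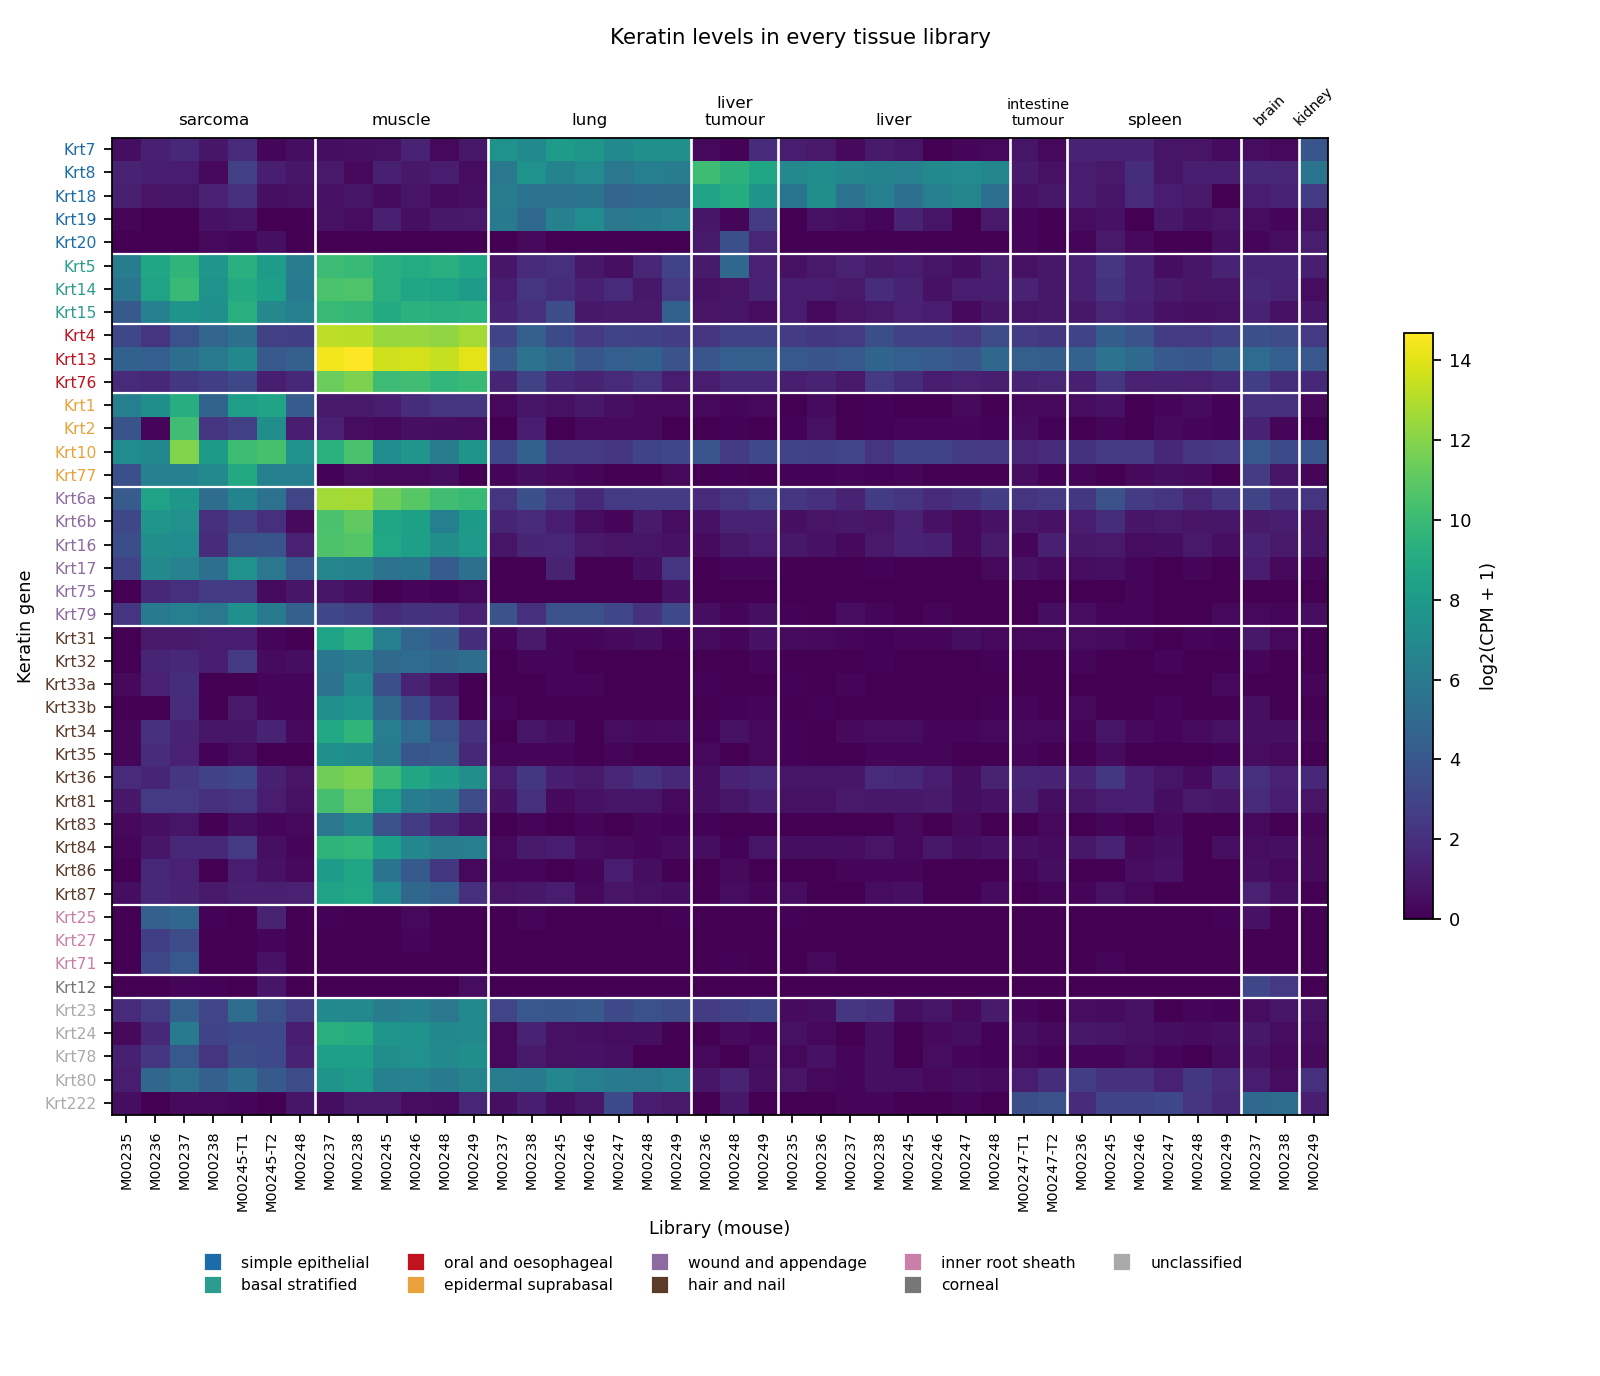
Level of each of the 42 keratins that reached 5 CPM, as log2(CPM + 1), in each of the 42 tissue libraries (columns, named by mouse), with gene names coloured by class. The 6 muscle libraries carry the oral, basal, wound and hair classes and, of the epidermal class, Krt10. The 7 sarcoma libraries carry the basal, epidermal and wound classes, and lung, liver, liver tumour and kidney the simple class.

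The share of all counts that fell on keratins separated the tissues. It was 0.0479 to 0.845% in sarcomas, 0.0677 to 0.152% in liver tumours and 0.00584 to 0.00589% in the intestine tumour libraries. In normal tissue it was 2.03 to 6.52% in muscle, 0.0405 to 0.0711% in lung, 0.0185 to 0.0335% in liver, 0.0108 to 0.0158% in brain and 0.00448 to 0.0127% in spleen. Every muscle library lay above every other library of the series, and the sarcomas ran from inside the range of the lungs to under the lowest muscle.

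The make-up of that share differed as well. In sarcomas, epidermal suprabasal keratins held 16.1 to 66.7% of keratin counts, basal keratins 22.6 to 44.1% and wound and appendage keratins 6.34 to 39.7%. The sarcoma of M00236 had both the lowest epidermal share and the highest wound and appendage share. In liver tumours simple keratins held 90.3 to 96.9%, against 71.1 to 89.1% in normal livers. Lung had 63.2 to 78.9% on simple keratins. In muscle the 3 oral and oesophageal keratins held 59.7 to 86.5%, and simple keratins no more than 0.0149%. Wound and appendage keratins held 5.33 to 17.3% in muscle and hair and nail keratins 1.01 to 14.6%.

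Muscle was the keratin-rich tissue of the series, and most of its keratin counts fell on the keratins of mouth and oesophagus. Krt13, the type I keratin of the layers above the basal cells in mouth and oesophagus, had a lowest, median and highest level of 10801, 15463 and 26194 CPM over the 6 muscle libraries. Its type II partner Krt4 had 4755, 6096 and 9403 CPM, and Krt76, known from palate and gingiva, had 846, 1109.6 and 3509 CPM. These 3 genes stayed within a range of 1.98-fold (Krt4) to 4.15-fold (Krt76) between the muscle libraries.

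Basal keratins accompanied them in muscle. Krt5 lay at 388 to 1066 CPM, its partner Krt14 at 272 to 1617 CPM and Krt15 at 499 to 1003 CPM. Keratins that rise in wounds and in thickened epithelium followed, with Krt6a at 995 to 6666 CPM, Krt6b at 78.5 to 2183 CPM, Krt16 at 149 to 1745 CPM and Krt17 at 18.1 to 100.1 CPM. Epidermal suprabasal keratins summed to 77.5 to 1404 CPM in muscle, which overlaps the 241 to 5554 CPM of sarcoma. Among them, Krt10 had 72.7 to 1403 CPM in muscle. Of the keratins without a class here, Krt24 had 113 to 617, Krt78 128 to 312, Krt80 a median of 92.3 and Krt23 55.7 to 126 CPM.

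Hair and nail keratins differed far more between muscle libraries than the oral ones. Krt36 had 2842 and 3491 CPM in the muscles of mice M00237 and M00238, 1008 CPM in M00245, 387 in M00246, 261 in M00248 and 154 in M00249. Krt81 followed the same order, with 1313 and 2300.2 CPM in M00237 and M00238, 294 in M00245, 70.2 in M00246, 53.8 in M00248 and 9.73 in M00249. Krt34 had 447 and 766 CPM in M00237 and M00238 and 3.24 CPM in M00249. Between the lowest and the highest muscle, Krt31 spanned 217-fold, Krt83 136-fold and Krt87 145-fold, while Krt32 spanned 2.48-fold. Krt33a and Krt33b were listed at 0 in M00249 and reached 123 and 205 CPM in M00238. Krt35 had 2.21 to 161 CPM, Krt84 70.5 to 838 CPM and Krt86 0.26 to 410.5 CPM. Summed over the class, hair and nail keratins had 9488 CPM in M00238 and 289.8 CPM in M00249. Inner root sheath keratins summed to at most 0.648 CPM in any muscle library.

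The muscle label was checked against marker genes. A list of 8 skeletal muscle genes, such as Acta1 and Ckm, summed to 16774 to 31434 CPM in muscle. A list of 18 genes of squamous differentiation, such as Trp63, Krtdap, Lor and Rptn, summed to 5276 to 15699.5 CPM in the same libraries, with no member at 0. The 2 libraries with the most hair keratin, M00237 and M00238, had 15133 and 15699.5 CPM of that list, and the other muscles 5276 to 8202 CPM. The muscle libraries therefore held RNA of both kinds, and the part of squamous tissue in their keratins was not tested.

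Set against lung, 28 of 54 keratins passed the filter on low counts in muscle. Of these, 23 were higher in muscle and 4 lower (edgeR quasi-likelihood test, Benjamini-Hochberg adjusted p under 0.05 over all genes), while of all 15155 genes tested 27.6% were higher and 30.3% lower. Here and in the comparisons that follow, a keratin near 0 in 1 group passed the filter only through the other, so the counts of members describe and support nothing. Among the keratins called higher, the 6 muscle values all lay above the 7 lung values except for Krt80. Krt13 averaged 16977 ± 5804 CPM in muscle and 22.9 ± 11.6 CPM in lung (SD, n = 6 and 7), a log2 fold change of 10.41 ± 0.44 (SE, adjusted p = 7.66e-11 by edgeR). Krt4 had a log2 fold change of 10.53 ± 0.45 and Krt76 one of 10.06 ± 0.52. The median lung levels of Krt13, Krt4 and Krt76 were 0.116, 0.101 and 0.125% of their muscle means. Similar low percents in other tissues are not read below as expression, so these folds are ratios to a low level of that kind. Basal keratins were also higher in muscle, with log2 fold changes of 9.04 for Krt5 and 9.16 for Krt14. Krt10, the type I keratin of suprabasal epidermis, had one of 6.53 ± 0.70.

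Of the rest, Krt32 had a log2 fold change of 10.33, Krt78 of 9.67, Krt6a of 10.17, Krt24 of 9.90, Krt16 of 10.18, Krt84 of 10.20 and Krt23 of 3.90, each with an adjusted p of at most 2.14e-08 by edgeR. The 4 keratins lower in muscle were the simple ones. Krt7 averaged 0.727 ± 0.517 CPM in muscle and 180.1 ± 52 CPM in lung (log2 fold change -7.09). Krt8, Krt18 and Krt19 had log2 fold changes of -5.86, -5.33 and -5.59. Only Krt79, a keratin of the hair follicle opening and sebaceous duct, did not pass, at -0.19 ± 0.39 (adjusted p = 0.698 by edgeR). With library totals and no correction for composition, the median log2 fold change of all genes moved to -0.94, against -0.06, 1987 genes were higher and 9119 lower in place of 4179 and 4590, and Krt79 was also lower in muscle.

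Partners of keratins moved in the same comparison. Of 19 genes of desmosomes and hemidesmosomes, the junctions that anchor keratin filaments, all 19 passed the filter, 16 were higher in muscle and 2 lower. The desmosomal cadherins Dsg1a (10.88), Dsc1 (10.16), Dsg3 (8.40) and Dsc2 (7.80) had the smallest adjusted p-values. Of the 18 squamous genes, 17 were tested and 17 were higher, with a median log2 fold change of 8.62, against -0.06 over all genes. Desmin (Des), the filament protein of muscle, was 4.73 higher on the log2 scale.

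The start regions of the keratin genes were compared because keratins of several classes were high together in muscle. RefSeq windows of 250 bases before to 50 bases after the start (GRCm38.p6) were found for 36 keratins, 37 windows in all, on chromosomes 11 and 15. The letters TATAAA on the gene's strand stood in 17 of them (45.9%), against 8.32% of 32851 windows of the same length, and 20 to 40 bases before the start in 13 (35.1%), against 1.99%. These are 6 that carry it there, from an oral, an epidermal, 2 hair and 2 inner root sheath keratins, each 30 bases on the minus strand with TATAAA in capitals.
Krt76 (chr15:101892932-101892961): ggcagcctgggaTATAAAggccagcttccc
Krt10 (chr11:99389373-99389402): gccctctcagtaTATAAAggctcggcactg
Krt31 (chr11:100050563-100050592): ctgtagaaggctTATAAAgtctcaccaagg
Krt34 (chr11:100041568-100041597): cactggtatgggTATAAAaagaccacgaag
Krt25 (chr11:99322964-99322993): ttgagaatcgtcTATAAAagggcaaacaaa
Krt71 (chr15:101743120-101743149): atgccaagcataTATAAAggcacctgctgg
The 6 letters were not in the windows of Krt13, Krt36, Krt5, Krt14, Krt2 and Krt77, so genes that were high together, such as Krt76 and Krt13 in muscle, differ in this respect. Krt4, Krt6a, Krt6b and Krt16, high in muscle, had no window, while the inner root sheath keratins with one summed to at most 0.648 CPM there. The percents therefore describe the keratins with a window and not those high in muscle. A match of letters is a description and names no factor.

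Most keratins that were high in muscle had a low level in the tissues other than sarcoma, near the same small percent of their muscle level. For the 20 keratins with a mean of at least 100 CPM in muscle, the median level was 0.118% of the muscle mean in liver tumours and 0.12% in the intestine tumour. In normal tissue it was 0.146% in lung, 0.106% in liver, 0.122% in spleen, 0.111% in kidney and 0.224% in brain. Under 0.5% of the muscle level lay 18 of 20 keratins in lung, 19 in liver, 18 in spleen, 17 in brain, 18 in kidney, 18 in liver tumours and 18 in the intestine tumour, against 7 in sarcomas. Krt10 exceeded that line in each of these tissues, Krt80 in all but liver, with 58.3% in lung, and Krt87 in brain. The median was 0 for Krt86 in liver, spleen and liver tumour and for Krt31 and Krt87 in kidney.

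**Figure D2:**
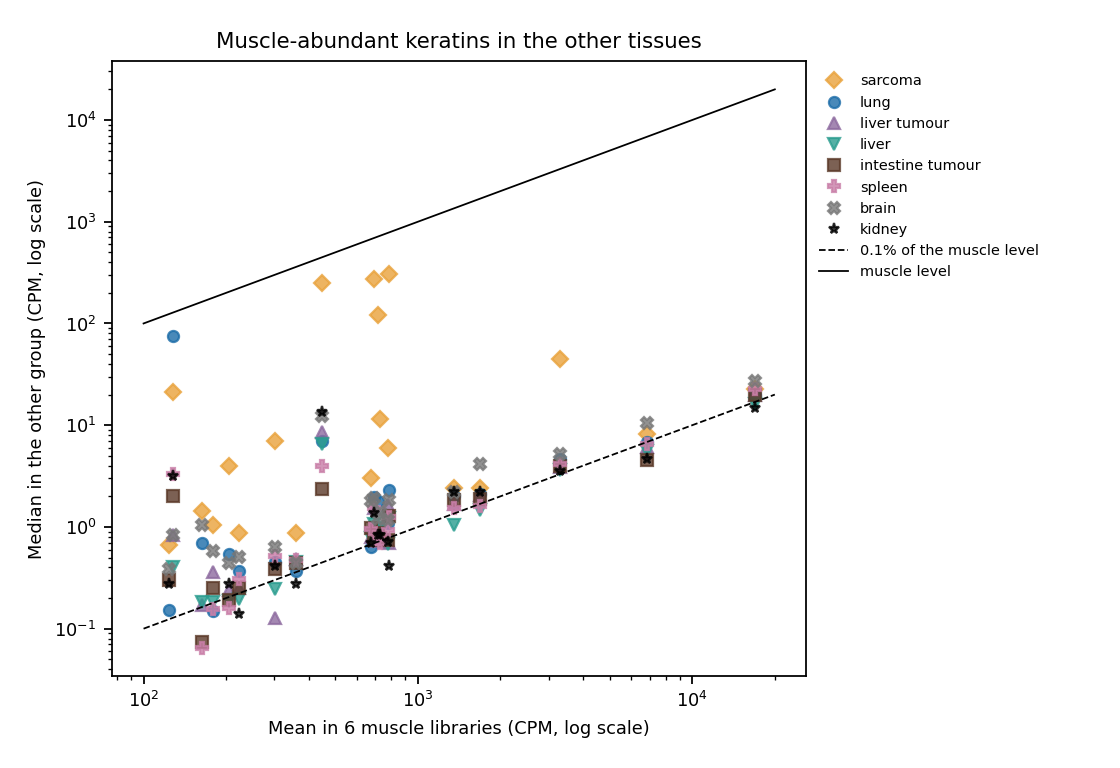
Median level in each other tissue against the mean in muscle, for the 20 keratins with a mean of at least 100 CPM in muscle (both axes logarithmic, levels in CPM). Outside sarcoma most points lie near the dashed line at 0.1% of the muscle level, while in sarcoma the median keratin stands at 0.825% of it. A keratin with a median of 0 is not drawn.

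Krt13 shows the pattern library by library. It lay between 12.3 and 47.9 CPM in all 24 normal libraries other than muscle, from lung M00249 to spleen M00245, and at 13.7 to 20.5 CPM in liver tumours. The ratio of Krt13 to Krt4 was 2.25 to 2.86 in muscle, 2.46 to 3.12 in liver, 2.57 to 3.54 in spleen, 2.19 to 3.66 in lung and 2.08 to 3.09 in brain, among libraries with enough Krt4 counts. Over the 42 tissue libraries, on log2(CPM + 1), Krt13 and Krt4 had a Pearson correlation of 0.998, and the next closest to Krt13 was Krt76 at 0.993; this describes libraries that share mice and tissues and has no test.

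Genes of other tissues had similar medians, with exceptions. The 8 lung epithelial genes, Sftpc among them, had a median of 0.17% of their lung level in the 35 libraries of other tissues, the 8 hepatocyte genes 0.2% of their liver level in 31 libraries, and the 8 skeletal muscle genes 0.13% of their muscle level in the 29 libraries that are neither muscle nor sarcoma. The hepatocyte sum reached 582 and 1716 CPM in the brains and 516 CPM in kidney, the highest being 3.1% of the liver level. In sarcomas the skeletal muscle sum had a median of 426 CPM and a highest of 4350 CPM, in M00238. In fibroblasts, kept in a separate table, Krt13 did not exceed 0.281 CPM at passage 1 and Krt4 was listed at 0. Passage of reads between libraries was not tested. Values of a few CPM for these keratins outside muscle and sarcoma are not read here as expression of that tissue.

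Sarcomas carried keratins of epidermis. Krt10 had 116 CPM in the sarcoma of M00236, 139 in M00235, 185 in M00248, 252 in M00238, 1127 and 1344 in libraries T1 and T2 of M00245, and 3757 in M00237. Krt1, the type II partner of Krt10 in epidermis, had 18.4, 159.6 and 565 CPM as lowest, median and highest. Krt77, a keratin of suprabasal epidermis and sweat duct, had 11.1, 85.2 and 485 CPM, and no other tissue library exceeded 4.99 CPM. Krt2, the keratin of the uppermost living epidermal layers, had 1146 CPM in M00237 and 149 in M00245-T2, 0.174 to 13.2 CPM in the other 5 libraries.

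The ratio of Krt10 to Krt1 in sarcomas ran from 0.725 in M00236 to 10.1 in M00248. The basal pair was steadier, with a ratio of Krt14 to Krt5 of 0.746 to 1.2 in sarcomas, against 0.613 to 1.63 in muscle. Inner root sheath keratins stood in 2 tumours: Krt25 had 21.8 CPM in M00236 and 28.7 CPM in M00237, and no other sarcoma exceeded 1.65 CPM. Krt27 had 5.49 and 9.53 CPM and Krt71 8.18 and 15.7 CPM in the same 2 libraries.

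Compared with muscle, the sarcomas of 6 mice (both M00245 libraries summed) had 3 of the 4 epidermal keratins tested higher, Krt10 being the exception, and the oral, hair and basal keratins tested lower. Of 54 keratins 30 passed the filter, 4 were called higher and 24 lower, while of all 14697 genes tested 33.6% were higher and 31.4% lower. Krt77 averaged 107 ± 84.1 CPM in sarcoma and 0.245 ± 0.177 CPM in muscle (SD, n = 6 each), a log2 fold change of 7.70 ± 0.73 (SE, adjusted p = 9.12e-07 by edgeR). Krt1 averaged 198 ± 216 CPM in sarcoma and 2.29 ± 1.39 CPM in muscle, a log2 fold change of 5.41 ± 0.86 (adjusted p = 8.73e-05). All 6 sarcomas lay above all 6 muscles for these 2 genes.

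Krt2 and Krt79 were called higher in sarcoma although the groups overlapped. Krt2 averaged 208 ± 460.3 CPM in sarcoma and 0.591 ± 0.477 CPM in muscle, with 1146 CPM from M00237 alone, and its log2 fold change was 7.34 ± 1.81. Krt79 had 3.66 to 109.8 CPM in sarcoma and 1.56 to 7.6 CPM in muscle, a log2 fold change of 2.86 ± 0.61. Krt10 itself differed by 0.11 ± 0.87 on the log2 scale (adjusted p = 0.923 by edgeR), at 116 to 3757 CPM in sarcoma and 72.7 to 1403 CPM in muscle. Krt17 had a log2 fold change of -0.72 ± 0.60 and did not pass.

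The 3 oral keratins showed no overlap between the groups. Krt13 averaged 37.1 ± 19.1 CPM in sarcoma and 16977 ± 5804 CPM in muscle, a log2 fold change of -9.80 ± 0.46 (adjusted p = 4.57e-09 by edgeR). Krt4 had a log2 fold change of -10.02 ± 0.56 and Krt76 one of -9.83 ± 0.49. Over the 7 sarcoma libraries Krt13 had 15.9 to 116 CPM, and 5 of them lay inside the 12.3 to 47.9 CPM of the normal tissues other than muscle.

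Of 15 hair and nail keratins in the table, 11 passed the filter through their muscle counts, which fixed their direction, so their count is a description only. Krt36 averaged 3.34 ± 2.08 CPM in sarcoma and 1357 ± 1447 CPM in muscle, a log2 fold change of -9.53 ± 0.96. Krt32, Krt84, Krt87, Krt31 and Krt81 had log2 fold changes of -5.92, -8.94, -7.73, -8.87 and -8.81. Basal keratins were closer between the tissues, and the groups overlapped for Krt5 and Krt14, though not for Krt15. In sarcoma Krt5 had 72.5 to 779 CPM and Krt14 54.1 to 936 CPM, in muscle 388 to 1066 and 272 to 1617 CPM. Krt5 averaged 331 ± 272 CPM in sarcoma and 692 ± 272 CPM in muscle (log2 fold change -1.99 ± 0.52), Krt14 330.1 ± 329 CPM in sarcoma and 783 ± 596 CPM in muscle (-2.16 ± 0.66), and Krt15 had a log2 fold change of -3.32 ± 0.49. Among the others, Krt78 had one of -6.05 and Krt23 one of -4.19.

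**Figure D3:**
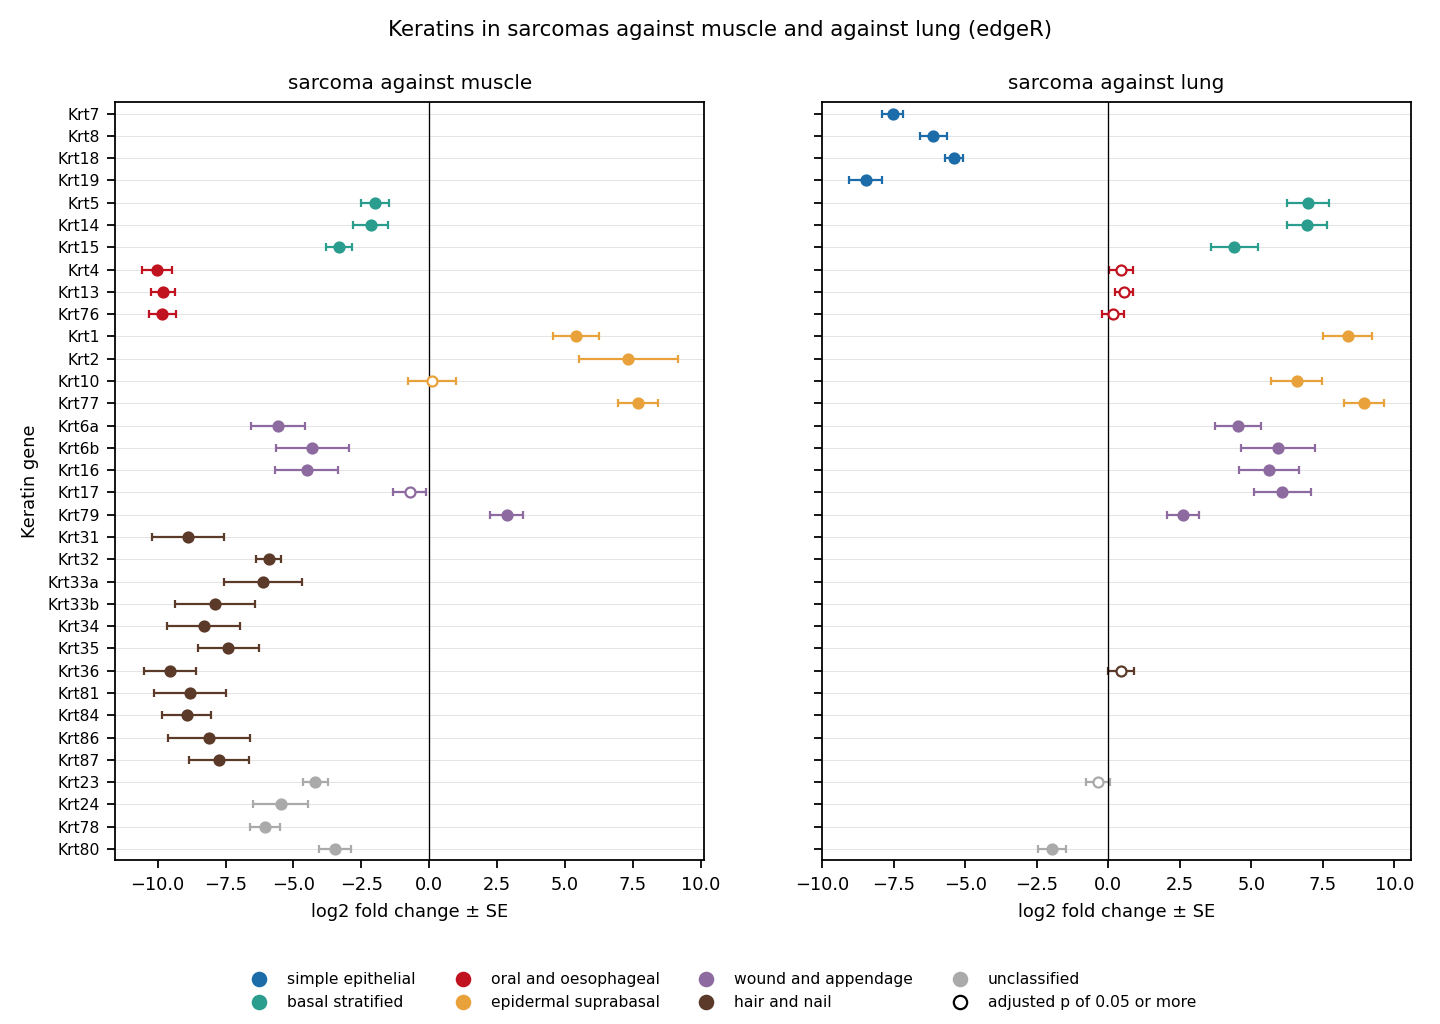
Log2 fold change with its standard error for the keratins of each class in sarcoma against muscle (left) and against lung (right), from edgeR with 6 sarcoma mice, 6 muscles and 7 lungs, filled where the adjusted p was under 0.05. Krt1, Krt2, Krt77 and Krt79 are the 4 keratins called higher against muscle, and the 4 simple keratins tested lie lowest against lung.

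Squamous genes other than keratins were compared as well. Of the 18, all were tested against muscle and 16 were lower in sarcoma, among them the cornified envelope proteins Sprr3 (-9.59) and Rptn (-7.47), the crosslinking enzyme Tgm3 (-7.88) and Cnfn (-6.08), and 0 were higher. Of the desmosome and hemidesmosome genes 18 were tested, 15 were lower and 1 higher. The list of squamous genes had a median sum of 1228 CPM in sarcoma and a highest of 3683 CPM in M00237, with no member at 0 in any, against 5276 to 15699.5 CPM in muscle. Other filament proteins went both ways, with vimentin (Vim, 1.06) and nestin (Nes, 1.81) higher in sarcoma and desmin (Des, -4.70) and synemin (Synm, -1.54) lower. The part of skin tissue in the sarcoma pieces was not tested.

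Scaling bears on these counts. With library totals and no correction for composition, the median log2 fold change of all genes moved to 1.03, against 0.06 in the fit given above, 9271 of all genes were higher and 2019 lower in place of 4931 and 4609, and the calls for Krt5 and Krt14 were lost. With the mouse as a block, 8 keratins were higher and 28 lower, while of all genes tested 4284 were higher and 4488 lower. That fit also passed more genes through the filter, 18949 in place of 14697. The additional 4, the inner root sheath keratins Krt25, Krt27, Krt28 and Krt71, had not been tested without the block.

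Against lung, sarcomas had higher basal, epidermal and wound keratins and lower simple ones. Of 54 keratins 21 were tested, 11 were higher in sarcoma and 5 lower, while of all 15556 genes tested 18.1% were higher and 23.8% lower. Krt5 averaged 331 ± 272 CPM in sarcoma and 2.36 ± 2.11 CPM in lung (SD, n = 6 and 7; log2 fold change 6.98 ± 0.73, adjusted p = 1.62e-06 by edgeR). Krt14 had a log2 fold change of 6.95 ± 0.70, Krt15 of 4.41, Krt1 of 8.38, Krt10 of 6.59 and Krt77 of 8.94. Of the wound and appendage class, Krt6a had 4.53, Krt6b 5.93, Krt16 5.62, Krt17 6.09 and Krt79 2.62. With the mouse as a block, Krt6a, Krt6b and Krt16 no longer passed, with adjusted p-values of 0.062, 0.377 and 0.152 by edgeR.

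Simple keratins were lower in sarcoma than in lung with no overlap. Krt8 averaged 1.48 ± 1.07 CPM in sarcoma and 96.1 ± 45.3 CPM in lung (log2 fold change -6.11 ± 0.48). Krt19 had -8.48 ± 0.59, Krt7 -7.54 ± 0.38 and Krt18 -5.39 ± 0.32, and Krt80 was also lower at -1.96 ± 0.49. The oral keratins did not pass. Krt13 differed by 0.55 ± 0.32 (adjusted p = 0.191 by edgeR) and Krt4 by 0.45 ± 0.43. Without the lung of M00238, Krt13 passed at 0.79 (adjusted p = 0.0384 by edgeR). Of 14 squamous genes tested, 11 were higher in sarcoma, led by Krtdap (6.65), Lor (5.40), Trp63 (6.12) and Flg (8.33), and 0 were lower.

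Between the tumour kinds, all 3 basal and all 4 epidermal keratins tested and 5 of 6 of the wound and appendage class were higher in sarcoma, 0 of 3 oral keratins passed, and Krt8 and Krt18 were lower in sarcoma. Of 54 keratins 29 were tested, 16 were higher in sarcoma than in liver tumour and 2 lower, while of all 16557 genes tested 30.2% were higher and 25.6% lower. Krt8 averaged 1.48 ± 1.07 CPM in sarcoma and 744 ± 359 CPM in liver tumour (SD, n = 6 and 3; log2 fold change -9.91 ± 0.64, adjusted p = 4.81e-07 by edgeR), and Krt18 1.1 ± 0.477 CPM in sarcoma and 359 ± 172 CPM in liver tumour (-9.27 ± 0.45). Krt77 had a log2 fold change of 10.15, Krt15 of 6.78, Krt14 of 7.44, Krt17 of 8.12, Krt1 of 8.70 and Krt79 of 6.22, each higher in sarcoma.

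Further keratins higher in sarcoma than in liver tumour were Krt10 (5.64 ± 1.36), Krt80 (3.39 ± 0.93), Krt78 (3.87 ± 1.07), Krt5 (3.94 ± 1.22) and Krt6a (4.04 ± 1.27). Krt75, a companion layer keratin of the follicle, was listed at 0 in all 3 liver tumours and reached 5.03 CPM in sarcoma (adjusted p = 0.0149 by edgeR), so no fold is given. Krt13 and Krt4 differed by 0.06 ± 0.37 and 0.29 ± 0.54 and did not pass. Krt5 narrowly missed the threshold without liver tumour M00236 or M00249, at 3.40 and 3.41 (adjusted p = 0.0532 each by edgeR), and Krt6a without M00236 or M00248, at 3.81 and 4.02 (adjusted p = 0.0719 and 0.0585). The count of 16 was 10 without liver tumour M00236, where 4444 of all 17255 genes tested were higher. With library totals and no correction for composition the median of all genes was 1.16, against 0.20. Then 8569 of all genes were higher and 2112 lower, in place of 4995 and 4246, and Krt13 passed at 1.05.

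Liver tumours differed from normal liver in the simple pair. Krt8, the type II keratin of hepatocytes and bile duct, had 1122, 702 and 408 CPM in the tumours of M00236, M00248 and M00249, against a lowest, median and highest of 88.7, 114 and 143 CPM in 8 normal livers. Its log2 fold change was 2.53 ± 0.26 (SE, adjusted p = 0.000133 by edgeR). Krt18, its type I partner, had 346, 538 and 194 CPM in the same tumours, against 40.3, 65.5 and 154 CPM in normal livers, a log2 fold change of 2.12 ± 0.38 (adjusted p = 0.00465). All 3 tumours lay above all 8 livers for both genes. The ratio of Krt18 to Krt8 was 0.308 to 0.767 in tumours and 0.381 to 1.08 in livers.

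In all, 13 of 54 keratins were tested in this comparison, 3 were called higher in liver tumour and 0 lower, while of all 13256 genes tested 6.98% were higher and 3.64% lower. The third was Krt5, at 30.7 CPM in the tumour of M00248, 1.08 and 1.52 CPM in the others, and 0.433 to 1.57 CPM in normal livers. Its log2 fold change of 3.23 ± 0.75 became 0.13, with an adjusted p of 0.933 by edgeR, without M00248. Krt23 had 4.93, 6.14 and 8.1 CPM in tumours and 0.289 to 4.01 CPM in livers, with no overlap, and its log2 fold change of 1.99 ± 0.70 did not pass (adjusted p = 0.091). Krt20, a keratin of intestinal and urothelial surface cells, had too few counts for the test, with 1.08, 11.1 and 2.03 CPM in the tumours and 0 in all 8 livers. Krt19, known from bile duct, had 0.842, 0.198 and 4.68 CPM in the tumours.

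**Figure D4:**
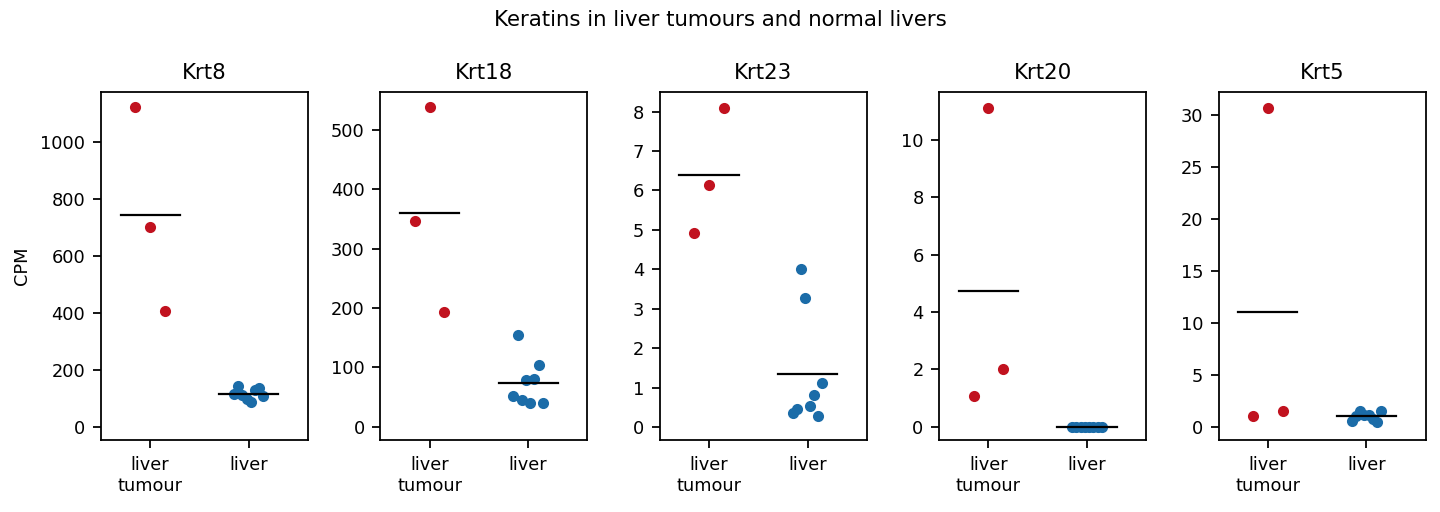
CPM of 5 keratins in each of 3 liver tumours and 8 normal livers (points, 1 per mouse), with the group mean as a line; each panel has its own linear axis. Krt8, Krt18 and Krt23 show no overlap between tumours and livers, and the Krt5 mean rests on 1 tumour at 30.7 CPM.

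Other keratins tested did not pass. Krt10 differed by 0.45 ± 0.32, Krt13 by -0.26 ± 0.30, Krt4 by -0.47 ± 0.37 and Krt14 by -0.71 ± 0.54 on the log2 scale. With the mouse as a block, where only M00236 and M00248 gave both tissues, 0 keratins were called, at log2 fold changes of 2.70 for Krt8 (adjusted p = 0.218 by edgeR) and 2.29 for Krt18 (adjusted p = 0.382), and 95 genes were called in all. With library totals and no correction for composition, 1388 of all genes were higher and 330 lower, in place of 925 and 482, and 4 keratins were higher. The tumour of M00249 is titled liver and was taken as a tumour from its group label.

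Other epithelial genes were higher in the same tumours. All 3 general epithelial genes tested passed, E-cadherin (Cdh1, 2.93), Cldn3 (0.94) and the epithelial transcription factor Elf3 (3.26). Of the bile duct list 3 of 6 were tested and 2 passed, Sox9 (2.36 ± 0.57) and Spp1 (3.33 ± 0.90). Its sum was 39.6, 1126 and 279.9 CPM in the tumours of M00236, M00248 and M00249, against 19.9 to 163 CPM in livers, so that M00236, with the highest Krt8, had a bile duct sum inside the range of the livers. Of 8 hepatocyte genes tested 3 were lower, Serpina1c, Tat and Cps1, at -2.05, -2.29 and -2.20, and 0 were higher. The hepatocyte sum was 18816, 95438 and 45517 CPM in the tumours of M00236, M00248 and M00249, against 39256 to 68946 CPM in livers, so it lay below, above and inside their range. Of the junction genes, 11 were tested and Itga6 (2.63) and Ppl (1.36) passed. The squamous list reached 3665, 1734 and 276 CPM in the tumours, of which Ly6d alone gave 3651, 1691 and 251 CPM. How far bile duct cells carried the simple keratins was not tested.

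Normal lung carried 4 of the 5 simple keratins in every library. Krt7 had 129, 163 and 275 CPM as lowest, median and highest over 7 lungs, Krt8 55.8, 79.5 and 179 CPM, Krt19 31.6, 67.4 and 139 CPM, and Krt18 26.9, 44 and 69.3 CPM. Krt80, at 61.3 to 109 CPM, Krt23 at 7.49 to 16.4 CPM and Krt79 at 3.18 to 12.4 CPM were also present in every lung. Basal keratins were low except in M00249, where Krt15 had 23 CPM and Krt5 6.65 CPM, against at most 10.2 and 3.14 CPM in the other lungs.

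Kidney, brain and spleen had few keratins above these levels. Kidney, 1 library, had 49.9 CPM of Krt8, 14.2 of Krt7 and 4.96 of Krt18. Krt222, which belongs to neither type, had 31.2 and 35.2 CPM in the 2 brains, 2.2 to 8.15 CPM in spleen and at most 0.892 CPM in liver tumours. Krt12, the keratin of corneal epithelium, had 7.66 and 4.36 CPM in the 2 brains, and no other tissue library exceeded 0.827 CPM. Spleen had Krt80 at 1.54 to 5.31 CPM.

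The intestine tumour libraries, both of mouse M00247 and so without a test, had almost no simple keratin. The 5 simple keratins together made 2.8 CPM in T1 and 1.76 CPM in T2, less than in any liver, lung or kidney library. Their sum was also low in spleen (2.93 to 7.02 CPM), muscle (2.03 to 3.89), sarcoma (1.88 to 12.4) and brain (4.35 to 4.56). In T1 and T2, Krt222 had 10.4 and 11.4 CPM, and Krt13 20.4 and 19.2 CPM. Of 8 intestinal epithelial genes, 5 were at 0 in T1 and 4 in T2, and their sum was 3.73 and 3.53 CPM, so the defining markers of that epithelium were absent or near 0. The leukocyte genes Ptprc, with 653 and 738 CPM, and Ms4a1, with 779 and 505 CPM, were high in the same libraries.

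In fibroblasts, 8 of 51 keratins reached 5 CPM in some library, 43 stayed at or under 4.75 CPM and 30 were at 0 throughout. Keratins took 0.0023 to 0.0199% of counts. Krt18 had 8.83, 30.3 and 51.1 CPM as lowest, median and highest at passage 3, and 6.55, 16.3 and 28.4 CPM at passage 1. Krt8 had 1.07 to 24.7 CPM at passage 3 and 1.94 to 12.3 CPM at passage 1, and Krt19 3.8 to 15.7 CPM at passage 3 and 2.45 to 16.7 CPM at passage 1.

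Time in culture was the comparison in which a fibroblast keratin moved. Krt7, a simple keratin of glands, lung and mesothelium, had 0.267, 10.3 and 18.7 CPM as lowest, median and highest over 9 embryos at passage 3, and 0, 1.83 and 3.37 CPM at passage 1. It was higher at passage 3 in 8 of 9 embryos, embryo 10 being the exception with 0.267 CPM at passage 3 and 1.8 CPM at passage 1. Of 51 keratins 6 were tested, of which Krt7 was the 1 called higher and 0 were lower, while of all 12051 genes tested 1.81% were higher and 1.01% lower. The log2 fold change of Krt7 was 2.31 ± 0.52 (SE, adjusted p = 0.0276 by edgeR), in a fit that did not pair the libraries of an embryo. The call was lost without embryo 1, 2, 3, 6, 7 or 8, at adjusted p-values of 0.0564 to 0.102 and log2 fold changes of 2.05 to 2.30.

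The other 5 keratins tested did not pass. Krt14 had a log2 fold change of 1.66 ± 0.56 (adjusted p = 0.118 by edgeR) and passed without embryo 10 (1.65, adjusted p = 0.0302) and with no filter (adjusted p = 0.0319). The log2 fold change of Krt8 was 0.84 ± 0.39, that of Krt18 0.71 ± 0.31, that of Krt19 0.44 ± 0.29 and that of Krt10 0.36 ± 0.35. Krt8, Krt18 and Krt14 were higher at passage 3 in 7 of 9 embryos each, Krt19 in 6 and Krt10 in 3. Embryo 2 at passage 3 stood apart for epidermal keratins, with 59.5 CPM of Krt10, against 5.6 to 9.25 CPM in the other embryos at that passage, and with 8.66 CPM of Krt1, which was at 0 in all other fibroblast libraries.

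**Figure D5:**
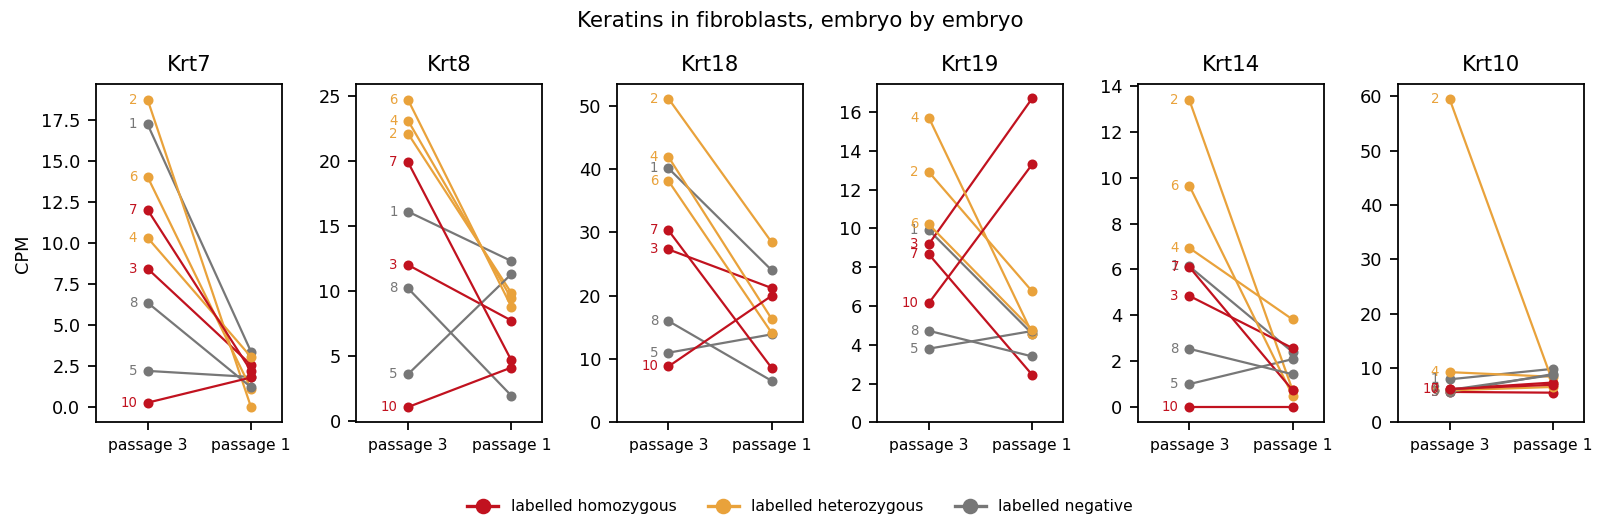
CPM of 6 keratins in fibroblasts at passage 3 (left) and passage 1 (right), with a line joining the 2 libraries of each numbered embryo, coloured by labelled genotype (9 embryos, linear axes). Krt7 is higher at passage 3 in 8 of 9 embryos, and embryo 2 reaches 59.5 CPM of Krt10 at passage 3.

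Of 6 mesothelial genes, all were tested and 2 were called higher at passage 3, Msln (2.01 ± 0.43) and Upk1b (2.06 ± 0.48), with a median log2 fold change of 1.78 over the 6, against -0.0038 over all genes. Their sum was 4.55 to 275 CPM at passage 3 and 17.7 to 87.5 CPM at passage 1, higher at passage 3 in 7 of 9 embryos, the exceptions being embryos 5 and 10, and 1 member was at 0 in 1 library. Embryo 10, the embryo whose Krt7 was lower at passage 3, also had the lowest mesothelial sum, 4.55 CPM. Other lists were higher at passage 3 as well. The bile duct list, with Sox9 and Spp1 called higher, was so in 9 of 9 embryos, at a median sum of 429 CPM at passage 3 and 207 CPM at passage 1, and the intestinal list in 8 of 9, at medians of 10.3 CPM at passage 3 and 5.34 CPM at passage 1. The part of any of these lists in the Krt7 result was not tested. Among other filament proteins, lamin B1 (Lmnb1, -0.45) and Nes (-1.19) were lower at passage 3.

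No keratin was called by labelled transgene genotype in fibroblasts. Of 6 keratins tested, 0 were called between embryos labelled homozygous and negative at passage 1 and 0 at passage 3, where 0% of the 12051 genes were called in either direction at each passage. An unadjusted p under 0.05 was found for 1315 genes at passage 1 and 452 at passage 3, and DESeq2 called 9 and 0 genes. Krt19 had the smallest p, with a log2 fold change of 1.36 ± 0.51 at passage 1 (adjusted p = 0.391 by edgeR), and passed without embryo 7 (1.85, adjusted p = 0.0109). The difference of the genotype effect between passages was not called for any keratin, with adjusted p-values of 0.992 to 0.997.

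Nrg1 goes against the label in 2 of these embryos, which limits the genotype comparison. Embryo 3, labelled homozygous, had 1.28 CPM at passage 3 and 0.644 CPM at passage 1, and embryo 1, labelled negative, had 147 CPM at passage 3 and 132 CPM at passage 1, while the other embryos labelled homozygous had 84.9 to 158 CPM and the other negative ones 0.485 to 1.57 CPM. Without both embryos 0 keratins were called at either passage. Embryo 8 carries conflicting passage names, and its column headed passage 5 was read as the passage 3 sample.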

How the data were processed

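Libraries were 3′ QuantSeq libraries sequenced on a HiSeq 4000, per the labels' protocols. The authors deposited estimated counts per gene, in which 6.6% (fibroblasts) and 8.35% (tissue) of values are not whole. The aligner, the counter and the build were each not given in the sources used here. CPM was computed from these deposited counts, and the deposited CPM tables were not used. Counts were rounded, where whole counts had been planned for, which changed totals by at most 0.0007%. Reads that fit several near-identical keratins may be split or lost, and 3′ counts do not scale with transcript length.

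Tests used edgeR 4.0.16 in R 4.3.3 (quasi-likelihood, TMM scaling, filterByExpr with a minimum count of 10) over all genes of a table, with Benjamini-Hochberg adjustment and a threshold of 0.05. The replicate within a group is the mouse or embryo, the 2 sarcoma libraries of M00245 were summed, and p-values measure the spread between animals within groups. The main fits had no term for the animal, so an animal sampled in both groups entered each as a separate unit. In the passage fit this holds for all 9 embryos, which gave 18 libraries. All columns had a sample. Named are every called keratin, up to the 12 smallest adjusted p in each direction, with Krt4, Krt5, Krt8, Krt10, Krt13, Krt14, Krt18 and Krt19 wherever tested, and up to 4 genes per companion list. The members, classes and lists were chosen with earlier results of these data known.

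Mouse and embryo numbers pair samples of the same animal. Deviations of paired samples correlated at -0.0763 to 0.376 (sarcoma and muscle, 4 pairs), -0.0663 to 0.211 (sarcoma and lung, 4), -0.116 to -0.0178 (sarcoma and liver tumour, 2), -0.185 to -0.157 (liver tumour and liver, 2), 0.0453 to 0.207 (muscle and lung, 6) and 0.0962 to 0.399 (passages, 9). Alternatives were the animal as a block, DESeq2 1.42.0, relative log expression scaling, no filter, a mean of 5 CPM, fits without mitochondrial, haemoglobin and immunoglobulin genes, single sarcoma libraries, only the groups compared, and leaving out each animal in turn. Library totals without composition scaling were added after seeing the data. The fits were tested on simulated data.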

Additional observations from a re-analysis of the deposited data

Results flagged for a closer look

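Within groups of 4 to 10 animals, 90 sets of CPM values were searched for 1 animal far from the others, and 13 stood apart, all on the high side. The limit used has a nominal rate of 1 in 20 for normally distributed values, which CPM need not be. A set entered only if its highest value reached 5 CPM, so some entered through the value that stood apart. The 13 are therefore a description and are not set against a rate. In fibroblasts at passage 3, embryo 2 had 8.66 CPM of Krt1, with all others at 0, and 59.5 CPM of Krt10, with the others at 5.6 to 9.25 CPM. Among sarcomas, M00237 had 3757 CPM of Krt10 (others 116 to 1247), 1146 CPM of Krt2 (others 0.174 to 85.7) and 63.1 CPM of Krt24 (others 0.318 to 8.27). Among lungs, M00238 had 22.7 CPM of Krt10 (others 3.92 to 8.25), 21 CPM of Krt4 (others 4.47 to 8.67) and 10.8 CPM of Krt6a (others 2.15 to 4.89). Lung M00238 was also the highest lung for the lists of brain (347 CPM, median 131) and hepatocyte genes (479 CPM, median 105). It was highest for skeletal muscle genes too (83.8 CPM, median 40), but not for kidney, intestinal or squamous genes. Lung M00249 had 23 CPM of Krt15 (others 0.894 to 10.2) and 6.65 CPM of Krt5 (others 0.541 to 3.14), and lung M00247 had 8.66 CPM of Krt222 (others 0.448 to 1.36). Muscle M00238 had 123 CPM of Krt33a (others 0 to 45.6), and spleen M00245 had 11.5 CPM of Krt6a (others 2.02 to 4.94). Spleen M00245 was also the highest spleen for skeletal muscle genes (100.1 CPM, median 39.2) and squamous genes (367 CPM, median 249.5), among other lists. It was not the highest for hepatocyte, lung epithelial or general epithelial genes. The cause of these values was not tested.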

How the results depend on the processing

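Under the alternatives 1760 values were computed for 93 fold changes, those the naming rule picks (Krt79 in muscle against lung and Krt23 in liver tumour are not among them). Of these values, 1734 kept their side of the threshold or had no adjusted p, 21 lost the call and 5 gained it. Where either fit made a call, 0 reversed direction. A change of sign where neither fit made a call was not counted. Without a filter on low counts, 2 keratins were higher and 1 lower at passage 3 against passage 1, 4 were lower in sarcoma than in liver tumour, 25 higher in sarcoma than in lung and 8 higher in sarcoma than in muscle. Of all genes in these fits, 334 of 23406 were higher and 181 lower at passage 3. In sarcoma 4747 of 31045 were lower than in liver tumour, 3686 of 32494 higher than in lung and 5830 of 31779 higher than in muscle. With the mouse as a replicate block, 8 keratins were higher in sarcoma than in muscle, where 18949 genes passed the filter in place of 14697 and 4284 were higher. In liver tumour 0 keratins were then higher than in liver, where 60 of all 15474 genes were higher. Among these fold changes the block also ended the calls of Krt78 and Krt75 against liver tumour and of Krt6a, Krt16 and Krt6b against lung, and no other. Leaving out 1 animal at a time (79 fits), keratins higher numbered 4 in sarcoma against muscle, 11 to 14 against lung and 10 to 17 against liver tumour, 2 to 4 in liver tumour against liver, 23 to 26 in muscle against lung, 0 to 2 at passage 3 against passage 1 and 0 to 1 in homozygous against negative embryos at passage 1. Keratins lower numbered 24 to 25, 5 and 2 to 3 in sarcoma against muscle, lung and liver tumour, 4 in muscle against lung and 0 to 1 at passage 3. The cause was not tested. Levels under 0.297 to 0.965 CPM, by library, cannot be told from 0 at this depth.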
